A study of Mus musculus with 6 samples.

Results

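Venous endothelial cells were 571 of the 61839 cells of 36 C57BL/6 mouse lungs, and were taken as the cells that the authors' annotation named Vein, which were the same cells as 1 of their fine clusters. Mice breathed 21% O2 (normoxia) or 85% O2 (hyperoxia) from the day of birth and were studied at postnatal day 3 (P3), 7 (P7) or 14 (P14), with 6 mice per group, both sexes, and pups randomized to dams. The study names an uneven split of the sexes at P3 and P7 as a limit, and an equal one at P14, and sex was not modelled here. No allele was altered in any mouse. Lungs were perfused and dissociated, cells of each mouse were tagged with a lipid-anchored sample barcode (MULTI-seq), and pools of 3 normoxic and 3 hyperoxic mice of an age were loaded together for droplet 3′ RNA sequencing, except that 1 P3 pool and 1 P7 pool were combined and loaded into 2 libraries. High O2 given to newborn mice is used as a model of bronchopulmonary dysplasia, the chronic lung disease of preterm infants, and it differs from the disease in that oxygen is the sole insult and the mouse is born at term.

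Lung veins return oxygenated blood to the heart. The endothelium of veins and venules is where leukocytes roll, adhere and leave the blood, by selectins and by the adhesion molecules VCAM-1 and ICAM-1, and venous identity rests on the transcription factor COUP-TFII (Nr2f2). It also stores von Willebrand factor and P-selectin together in Weibel-Palade bodies. When DNA or the cell is damaged, p53 switches on a set of target genes that halt the cell cycle (Cdkn1a), promote apoptosis (Bax) or restrain p53 itself (Mdm2), and prolonged high oxygen is a known trigger of this response.

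Markers were checked against the name before any comparison. The levels of these genes across cell types are a description only, because the cells had been clustered on them. Of the 571 cells, 97.4% held a UMI (a unique transcript molecule) of Vwf, which encodes von Willebrand factor, 75.1% of Nr2f2, 64.3% of Slc6a2, the noradrenaline transporter, and 20.3% of Vcam1. Because venous cells were sequenced to a median of 5476 UMIs and general capillary (gCap) cells to 2623, shares were also taken after each cell was thinned to 1000 UMIs. On that scale Slc6a2 was in 35.6% of venous, 0.0554% of gCap and 0% of lymphatic cells, Vwf in 79.5% of venous, 67.2% of arterial and 4.48% of gCap cells, Nr2f2 in 28.3% of venous, 40.1% of lymphatic and 3.27% of gCap cells, and Vcam1 in 6.35% of venous and 7.47% of arterial cells. Slc6a2 was therefore the marker that separated venous cells from every other endothelial type, while Vwf was shared with arteries, Nr2f2 with lymphatics, and Vcam1 did not stand above its arterial share. Of the 4 marker genes, 78 cells held all, 240 held 3, 188 held 2, 60 held 1 and 5 held none.

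Other vein genes were uneven. Car8, a carbonic anhydrase-related protein, was in 39.7% of thinned venous cells against 1.01% of gCap cells, whereas Ackr1, the chemokine receptor that marks venules in many organs, was in 0.363% of thinned venous cells. Nrp2 was in 12.9% of venous but 61.1% of lymphatic cells, Prss23 in 47.4 and 44.5%, and Selp in 4.54% of venous and 4.17% of arterial cells. Ephb4 (21.6%), Amigo2 (9.07%) and Bst1 (7.99%) were in a larger share of venous cells than of any other endothelial type. Cells of the venous cluster also held capillary transcripts. Gpihbp1, which carries lipoprotein lipase across capillary endothelium, was in 27.6% of thinned venous cells, 58.0% of gCap, 20.7% of lymphatic and 7.64% of arterial cells, and 236 venous cells held UMIs of both Slc6a2 and Gpihbp1. How much of this came from free RNA was not tested. Some markers of the other vessel types were low after thinning, with Car4 of aerocyte capillary (aCap) cells in 0.544%, arterial Gja5 in 0.181% and lymphatic Prox1 in 0.726%. Others on the same lists were not low in venous cells. Arterial Fbln5 was in 66.1%, Mgp in 37.0% and Ltbp4 in 33.8%, aCap Kitl in 20.9% and Ednrb in 13.2%, and lymphatic Lyve1 in 61.2%. Summed over their lists in the mice used below, stromal genes were at most 0.0716%, immune genes 0.0331%, erythroid genes 0.0342% and mesothelial genes 0.00445% of venous UMIs, and epithelial genes, chiefly Sftpc and Scgb1a1, ran from 0.0649 to 0.288%.

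Promoter windows are shown first for genes of the p53 and inflammatory groups, whose levels follow. The 250 bases before each RefSeq gene start (GRCm38.p6, 32851 windows) were searched on both strands for the p53 consensus pair, which is 2 decamers with no gap, allowing up to 1 mismatch, and for the 10-base NF-κB (κB) consensus with none. The genes were picked with their levels known, so the matches are a description without a test. A p53 pair was in 0.0761% of all windows, and in a window of 3 of the 13 p53-related genes that had an entry. These were Cdkn1a (chr17:29090829-29090978, plus strand), Rps27l (chr9:66946263-66946412, plus strand) and Ccng1 (chr11:40755287-40755501, minus strand), where the pair began 51, 117 and 195 bases before a start. Rps27l and Cdkn1a each had another start, whose windows held no such pair (4 and 5 mismatches at best). The printed window of Rps27l lies inside the gene, whose first base is chr9:66946086 in the position given below. Capitals mark the pair.
Cdkn1a: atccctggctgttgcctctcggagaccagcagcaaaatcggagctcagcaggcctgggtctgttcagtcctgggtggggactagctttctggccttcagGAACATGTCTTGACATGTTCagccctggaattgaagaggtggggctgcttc
Rps27l: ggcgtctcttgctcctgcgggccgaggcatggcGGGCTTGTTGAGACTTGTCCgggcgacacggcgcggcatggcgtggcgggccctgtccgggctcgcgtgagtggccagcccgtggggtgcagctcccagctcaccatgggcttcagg
Ccng1: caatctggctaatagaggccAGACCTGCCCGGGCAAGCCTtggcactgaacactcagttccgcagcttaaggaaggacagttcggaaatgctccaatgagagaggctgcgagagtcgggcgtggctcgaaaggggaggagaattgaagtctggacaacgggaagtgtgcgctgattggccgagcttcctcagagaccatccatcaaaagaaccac

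The κB consensus was in 3.9% of all windows, and in those of 2 of the 6 adhesion and cytokine genes that had an entry. These were Cxcl1 (chr5:90891095-90891244, plus strand), with the match 71 bases before the start, and Il6 (chr5:30012964-30013113, plus strand), with the match 44 bases before it. Capitals mark the κB match, and none of the 5 windows printed held both motifs.
Cxcl1: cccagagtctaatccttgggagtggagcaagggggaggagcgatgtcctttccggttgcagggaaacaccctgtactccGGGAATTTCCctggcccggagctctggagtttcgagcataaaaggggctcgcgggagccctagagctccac
Il6: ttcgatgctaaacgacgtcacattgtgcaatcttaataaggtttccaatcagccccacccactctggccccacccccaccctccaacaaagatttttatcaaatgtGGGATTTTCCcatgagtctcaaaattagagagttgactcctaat

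The venous share of the lung was compared mouse by mouse. At P14 venous cells were 1.11% ± 0.406 (SD, n = 6) of the cells of a normoxic lung and 0.605% ± 0.258 (SD, n = 6) under hyperoxia, a difference with an exact two-sided permutation p of 0.0325 that did not hold after adjustment (0.114 over 102 comparisons of cell types and ages). At P7 the means were 1.05% ± 0.328 and 0.724% ± 0.366 (exact permutation p = 0.147, n = 6 each), and at P3 they were 0.850% ± 0.299 and 0.785% ± 0.105 (exact permutation p = 0.617, n = 6 each). Within the endothelium the shares lay closer together, at 5.69 and 6.00% for P3, 5.92 and 5.46% for P7, and 4.54 and 4.37% for P14, none of which passed (adjusted p = 0.838 or above). The other parts of this denominator did change. By the same test gCap cells went from 67.1 to 36.4% of endothelial cells at P14 and aCap cells from 21.4 to 50.8% (adjusted exact permutation p = 0.0108 for both, n = 6 each). One hyperoxic P7 lung (replicate 5) gave 125 cells and no venous cell, which allows a share of up to 2.4%.

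**Figure D1:**
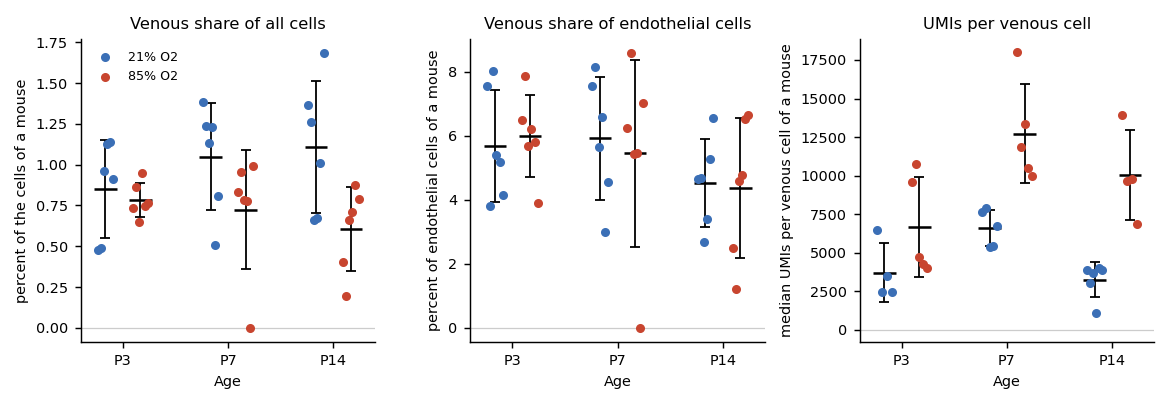
Venous cells by mouse at P3, P7 and P14 in 21% O2 (blue) and 85% O2 (red): percent of all cells, percent of endothelial cells, and median UMIs per venous cell for mice with at least 10 venous cells. Points are mice, and bars are the mean and SD. UMIs per cell did not overlap between oxygen levels at P7 and P14, whereas the shares did.

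Depth differed with oxygen. Median UMIs per venous cell at P7 ran from 5349.5 to 7891.5 over normoxic mice and from 9951 to 17987 over hyperoxic mice, and at P14 from 1071 to 4026.5 and from 6852 to 13923.5, with no overlap at either age (adjusted exact permutation p = 0.0119 for both). At P3 the ranges overlapped, at 2435 to 6472 and 3992 to 10758.5 (exact permutation p = 0.175, or 0.0167 when mice were permuted within pools), and with mice of at least 5 cells p was 0.481 and 0.21 by the same exact permutation tests. Depth also rose in capillary cells. At P14 medians per gCap cell ran from 1888 to 2247.5 in normoxia and 3075.5 to 5363 in hyperoxia. Per aCap cell they ran from 1724 to 2417.5 and 3442 to 5957.5 (adjusted exact permutation p = 0.0065 for both). Arterial cells passed at P7 (0.024) and not at P14 (0.13). The ratio of venous to gCap UMIs within a mouse rose at P7 (0.024) and did not pass at P14 (0.37). The normoxic P14 mouse with the lowest depth (replicate 4) gave 10 venous cells with 16.7% of UMIs from mitochondria. Without it 1010 genes passed at P14, against 976 with it, and 9 instead of 5 from P3 to P7. Log2 differences below are relative to the total UMIs of the tested genes in the venous cells of a mouse, after edgeR's TMM scaling, so they describe proportions. Whether the larger number of UMIs per cell reflects more RNA or better recovery was not tested.

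For expression, UMIs were summed over the venous cells of each mouse with at least 10 of them, which left 4 normoxic and 5 hyperoxic mice at P3, 5 and 5 at P7, and 6 and 4 at P14, with 19127 to 318396 UMIs each. Levels are in CPM, the usual scaling of UMI counts to a common total for every mouse. In the mouse with 19127 UMIs, normoxic P14 replicate 4, a level of 52.3 CPM is a single UMI. A gene was called changed when edgeR's quasi-likelihood test gave a Benjamini-Hochberg adjusted p below 0.05 over all genes tested and at least 10% of the venous cells of either group held a UMI of it. Over the 3 ages together, with age in the model, hyperoxia raised 464 and lowered 432 of 2479 genes (36.1% called). By age, 3 genes rose (0.0809%) and 2 fell (0.054%) of 3707 at P3 (0.135% in either direction), 218 rose (5.88%) and 141 fell (3.8%) at P7 (9.68%), and 513 rose (13.8%) and 463 fell (12.5%) at P14 (26.3%). At P3 328 genes had an unadjusted p below 0.05. Mice, cells and UMIs differed in number between the ages, so these counts are no test of a larger effect at one of them. With each age's deeper oxygen level thinned to the median of the other, 495 of 1608 genes tested (30.8%) were called over all ages. From cells without a UMI of Gpihbp1 or Kit (218 in all), 88 of 734 (12%) were called, in 23 mice with at least 5. A Gpihbp1 UMI was in 79.9% of normoxic and 33.9% of hyperoxic cells at P14 (70.6 and 50% at P7, 37.8 and 50% at P3). This choice therefore removed unequal shares of the oxygen levels.

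Genes of the p53 response rose at P7 and P14, and Cdkn1a and Bax also at P3. Of 26 listed p53 targets, 8 had enough UMIs to be tested over all ages, and 5 of them rose and none fell (18.7% of all tested genes rose), with a median log2 difference of 1.24 against 0.01 for all genes. At P3, 2 of the 14 tested rose (0.0809% of all genes), at P7 10 rose (5.88%), and at P14 9 rose and 2 fell (13.8% and 12.5%). The plot of p53 target levels by mouse shows the genes described next.

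Bax (chr7:45461697-45466898), whose product permeabilizes the mitochondrial membrane in apoptosis, gave the lowest p over all ages among these genes. At P3 the normoxic mice had 179, 154, 226 and 221 CPM and the hyperoxic mice 481, 555, 691, 579 and 520 CPM. P7 levels were 176, 180, 163, 139 and 216 CPM in normoxia and 947, 754, 885, 703 and 438 CPM in hyperoxia. All hyperoxic mice were above all normoxic mice at each age, P14 included, where normoxic levels ran from 73.2 to 261 CPM (median 109.5) and hyperoxic levels were 612, 708, 757 and 507 CPM. The log2 difference was 1.52 ± 0.23 (SE) at P3, 2.16 ± 0.19 at P7 and 2.64 ± 0.23 at P14 (adjusted p = 0.00035, 4.8e-10 and 1.4e-10). The P3 call was lost when cells were thinned to 2000 UMIs (log2 0.82, adjusted p = 0.43). In cells without a UMI of Gpihbp1 or Kit the P14 difference of Bax was 1.63 and did not pass (0.051), nor did those of Cdkn1a (1.91, 0.13), Phlda3 (2.00, 0.18) and Gdf15 (6.33, 0.27).

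Cdkn1a (chr17:29090976-29100727) encodes p21, the cyclin-dependent kinase inhibitor that p53 uses to arrest the cycle, and its promoter pair is printed above. In normoxia its level was 76.6, 66.1, 241 and 205 CPM at P3 and 223, 199, 175, 63.8 and 72.0 CPM at P7. Under hyperoxia it was 286, 663, 914, 668 and 571 CPM at P3 and 1273, 825, 1481, 638 and 422 CPM at P7. The oxygen levels did not overlap at any age, and at P14 normoxic mice ran from 52.3 to 375 CPM (median 213) and hyperoxic mice were at 833, 1012, 986 and 663 CPM. Log2 differences were 2.00 ± 0.41 at P3, 2.62 ± 0.33 at P7 and 1.90 ± 0.34 at P14 (adjusted p = 0.015, 9.3e-07 and 6.6e-05). Its P3 call was lost without normoxic replicate 3 (adjusted p = 0.15), normoxic replicate 4 (0.16) or hyperoxic replicate 4 (0.058), and with mice of at least 5 cells (log2 1.47, adjusted p = 0.083).

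Rps27l (chr9:66946086-66949516), a ribosomal protein S27-like gene that p53 induces, was not on the list but was the remaining gene raised at P3. Normoxic mice had 256, 298, 445 and 362 CPM at P3 and 235, 162, 227, 314, 225 and 298.5 CPM at P14. Hyperoxic mice had 733, 613, 1534, 965 and 867 CPM at P3 and 980, 1591, 1355 and 745 CPM at P14. Again no hyperoxic mouse overlapped with a normoxic one at P3, P7 or P14, and the log2 difference was 1.44 ± 0.27, 2.01 ± 0.24 and 2.32 ± 0.25 (adjusted p = 0.0052, 2.9e-07 and 1.2e-08). Its P3 call was lost without normoxic replicate 3 (0.060), normoxic replicate 4 (0.065) or hyperoxic replicate 4 (0.054). The 3′ reads of Rps27l can be shared with its paralog Rps27, and the same holds for Rpl22l1 and Rpl22, Ly6a and Ly6e, and the glycolytic genes with their pseudogenes, so levels of these are less certain.

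**Figure D2:**
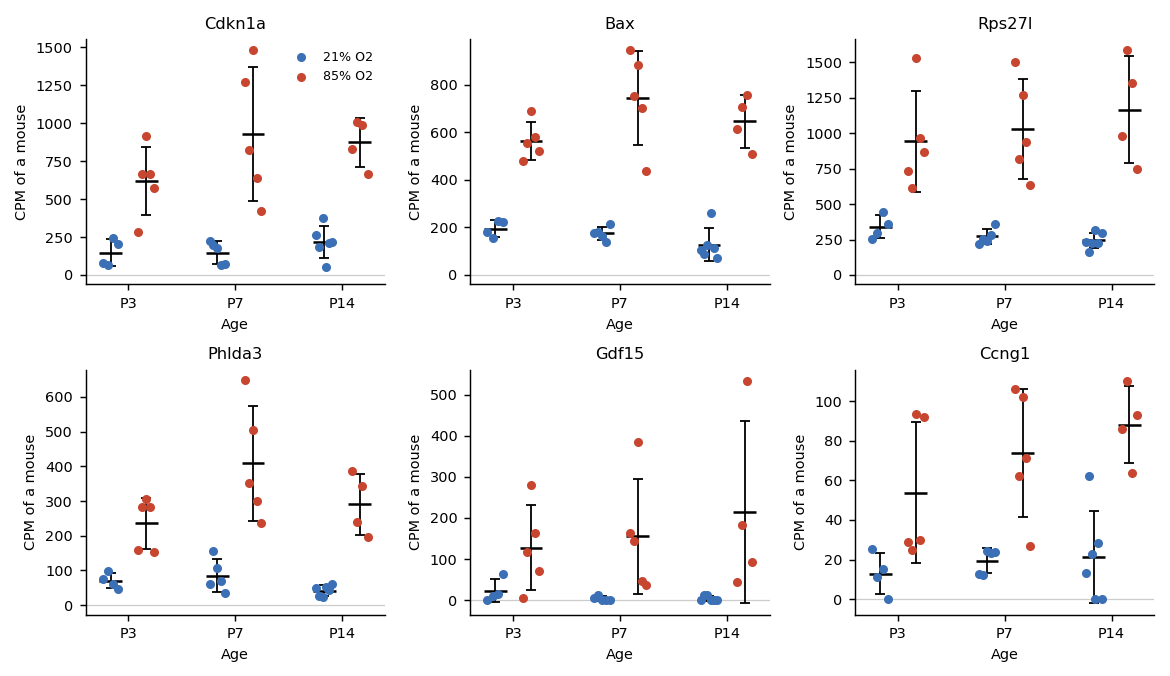
Levels of 6 p53-responsive genes in venous cells, in CPM per mouse, at P3, P7 and P14 in 21% O2 (blue) and 85% O2 (red). Points are mice, and bars are the mean and SD. For Cdkn1a, Bax, Rps27l and Phlda3 every hyperoxic mouse lies above every normoxic mouse of its age, and for Gdf15 and Ccng1 this holds at P7 and P14.

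Phlda3, a p53-induced inhibitor of Akt signalling, behaved alike, with log2 differences of 2.28 ± 0.28 at P7 and 2.75 ± 0.36 at P14 (adjusted p = 4.8e-07 and 5.2e-07) and 1.69 ± 0.39 at P3, which did not pass (0.064). Gdf15, a secreted stress cytokine, was near 0 in normoxia. At P7 normoxic mice had 6.28, 12.4, 0, 0 and 0 CPM and hyperoxic mice 163, 143, 385, 45.5 and 37.8 CPM. The groups were apart, with a log2 difference of 5.01 ± 0.89 (adjusted p = 0.00018). At P14 there were 2 UMIs of Gdf15 in the 6 normoxic mice together and 120 in the 4 hyperoxic mice, a ratio of 75.5 per total UMIs with a 95% counting interval of 20.4 to 630 (adjusted p = 6.9e-05). Ccng1 (cyclin G1) rose by a log2 of 2.00 ± 0.46 at P7 and 2.18 ± 0.54 at P14. Zmat3, an RNA-binding p53 target, rose by 2.30 and 3.61, Aen, an apoptotic nuclease, by 2.11 and 1.91, and Trp53inp1 by 2.14 and 1.39 on the log2 scale at P7 and P14. Not every target went up. Fas and Btg2 fell at P14, by 1.23 and 0.73 on the log2 scale, and Sesn1, Sesn2, Pmaip1, Perp, Eda2r, Ddb2, Xpc, Gadd45a, Plk3, Tnfrsf10b, Ddit4 and Psrc1 had too few UMIs to be tested in the fit by age.

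Rnf144a and Rpl22l1 were the genes that fell at P3. Rnf144a (chr12:26300964-26415254), an E3 ubiquitin ligase, was at 153, 209, 188 and 268 CPM in normoxia and 126, 41.4, 58.6, 14.8 and 71.4 CPM in hyperoxia at P3. At P14 it ran from 293 to 418 CPM (median 345) against 24.5, 64.4, 44.5 and 31.1 CPM. Hyperoxic mice were below normoxic mice at all ages, and the log2 difference in order of age was -1.49 ± 0.31, -1.59 ± 0.24 and -3.03 ± 0.31 (adjusted p = 0.021, 2.3e-05 and 7.7e-09). The P3 call of Rnf144a was lost when any 1 of 6 mice was left out (normoxic replicates 4 and 6 and hyperoxic replicates 2, 4, 5 and 6, with adjusted p from 0.051 to 0.14), when cells were thinned to 2000 UMIs (0.17) and when the deeper oxygen level was thinned (0.052). Rpl22l1, which encodes a ribosomal protein L22-like protein, fell by 1.32 ± 0.23, 0.99 ± 0.21 and 0.62 ± 0.23 on the log2 scale at P3, P7 and P14 (adjusted p = 0.0026, 0.0014 and 0.043).

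The venous markers did not move together. Of 12 listed venous genes, 9 were tested over all ages, and 1 rose and 4 fell (18.7% and 17.4% of all genes), with a median log2 difference of -0.35. Slc6a2 (chr8:92960079-93001667), the gene that best separated these cells, was at 182, 162, 310, 505 and 695 CPM in normoxic P7 mice and at 102, 138, 120, 221 and 173 CPM in hyperoxic ones. At P14 it ran from 366 to 1965 CPM (median 1498) in normoxia and was at 637, 515, 712 and 662.5 CPM in hyperoxia. The ranges overlapped at each age, at P14 only through normoxic replicate 4, and levels were lower with hyperoxia in 6 of 6 pairs of age and pool. Among mice with at least 10 venous cells, the P3 pair of the shared pool had a single normoxic mouse. The pair of 1 P14 pool had a single hyperoxic mouse. The log2 difference was -1.11 ± 0.20 over all ages (adjusted p = 6.3e-05), -1.19 ± 0.35 at P7 (0.021), -1.19 ± 0.32 at P14 (0.0053) and -0.77 ± 0.40 at P3 (0.60). Its P7 call did not hold without normoxic replicate 4 (adjusted p = 0.073) or 6 (0.088) or hyperoxic replicate 1 (0.067) or 3 (0.051), nor with cells thinned to 2000 UMIs (log2 -0.80, adjusted p = 0.42). In cells without a UMI of Gpihbp1 or Kit neither the P7 (adjusted p = 0.33) nor the P14 difference (log2 -1.27, 0.086) passed.

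Vwf changed less. Its difference over all ages was -0.35 (adjusted p = 0.043), a call lost with DESeq2 (0.05), without a filter on low counts (0.18), with mice of at least 15 cells (0.35), in cells without UMIs of other lineages (0.098), in P3 and P7 mice alone (-0.099, 0.73) and when any 1 of 10 mice was left out. It fell at P14 by 0.84 ± 0.21 on the log2 scale (adjusted p = 0.0034), where normoxic mice ran from 2666 to 4435 CPM and hyperoxic mice were at 1972, 1747, 1743 and 2702 CPM, with the highest of these above the lowest normoxic mouse. Amigo2, a cell adhesion protein, fell further, from 204 to 375 CPM (median 246) to 61.2, 18.4, 31.8 and 72.5 CPM at P14, with no overlap and a log2 difference of -2.41 ± 0.37 (adjusted p = 1e-05). Nrp2, a receptor for semaphorins and VEGF-C, fell by 0.37 ± 0.15 over all ages (0.048), a call lost when any 1 of 16 mice was left out. Nr2f2 gave a log2 difference of -0.35 over all ages, Ephb4 -0.16 and Prss23 -0.05, and none of these passed. Bst1 (CD157), an ectoenzyme involved in leukocyte passage, was the vein gene that rose over all ages, by 1.14 ± 0.17 (adjusted p = 5e-06). Over P14 mice it went from 53.2 to 157 CPM in normoxia (median 80.2) to 220, 165, 331 and 186 CPM.

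**Figure D3:**
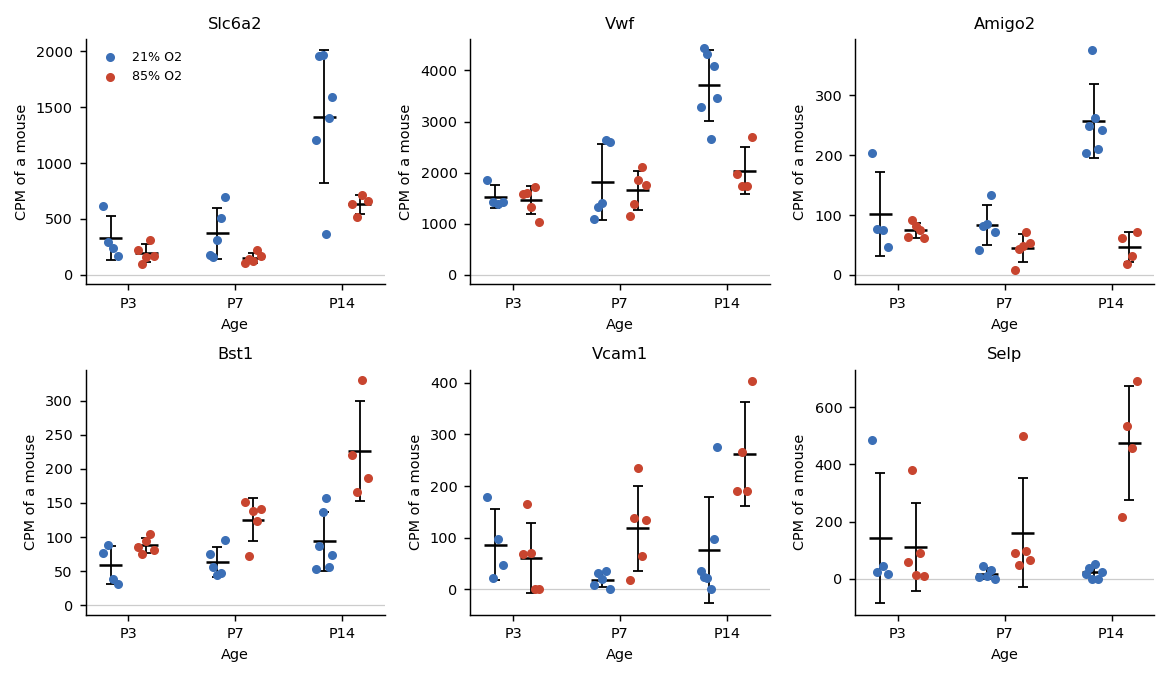
Levels of 6 venous marker genes in venous cells, in CPM per mouse, at P3, P7 and P14 in 21% O2 (blue) and 85% O2 (red). Points are mice, and bars are the mean and SD. Slc6a2, Vwf and Amigo2 lie highest in normoxic P14 mice, whereas Selp is at 214 CPM or above in the 4 hyperoxic P14 mice and at 52.3 CPM or below in the 6 normoxic ones. The 52.3 CPM is a single UMI of normoxic replicate 4.

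Selp, Sele, Vcam1, Icam1 and Cxcl1, which act in leukocyte adhesion and recruitment, rose at P7, and Selp and Cxcl1 also at P14. Of 25 listed adhesion and chemokine genes, 10 were tested by age, and 5 rose at P7 (5.88% of all genes rose) and 3 (Selp, Cxcl1 and Il6) rose and 1 fell at P14 (13.8% and 12.5%), with median log2 differences of 1.60 and 0.91. None passed at P3. Selp (chr1:164115264-164150026), which encodes P-selectin, was at 6.28, 43.5, 8.16, 29.0 and 0 CPM in normoxia and 90.9, 47.7, 499.8, 97.6 and 64.9 CPM in hyperoxia at P7. At P14 normoxic mice ran from 0 to 52.3 CPM (median 20.1) and hyperoxic mice had 214, 533, 458 and 694 CPM. Oxygen levels did not overlap at either age, and log2 differences were 3.19 ± 0.82 at P7 (adjusted p = 0.0091) and 4.64 ± 0.82 at P14 (6.3e-05). Without hyperoxic P7 replicate 3 the P7 difference was 2.14 and was not called (0.11), and in cells without a UMI of Gpihbp1 or Kit the P14 difference was 1.19 and was not called (0.75). At P3 Selp was high in a single mouse of each group, at 485 CPM in normoxia and 381 CPM in hyperoxia, against 15.8 to 45.2 and 10.2 to 89.1 CPM in the others.

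Vcam1 (chr3:116109949-116129688), the ligand of integrin VLA-4 on leukocytes, was at 9.42, 31.1, 20.4, 34.8 and 0 CPM in normoxic and 18.9, 138, 235, 65.0 and 135 CPM in hyperoxic P7 mice. All hyperoxic mice but 1 were above the normoxic ones, and the log2 difference was 2.54 ± 0.68 (adjusted p = 0.012). This call was lost without normoxic replicate 1 (0.057) or hyperoxic replicate 3 (0.064), and the difference of 1.39 ± 0.53 at P14 did not pass (0.051), with 1 normoxic mouse (replicate 6) at 276 CPM. Without that mouse the P14 difference was 2.68 and passed (0.0015), and it also passed without a filter on low counts (1.48, 7.8e-06) and with mice of at least 5 cells (1.35, 0.040). Sele (E-selectin) rose at P7 by 3.14 ± 0.79 (0.0075), but by 2.34 without hyperoxic replicate 3 (0.073), and Icam1 at P7 by 1.09 on the log2 scale.

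Cytokine genes of the same list rose too. Cxcl1, a chemokine that draws neutrophils, was at 34.5, 12.4, 32.6, 23.2 and 12.0 CPM in normoxic and 117, 300.5, 163, 91.1 and 48.7 CPM in hyperoxic P7 mice. P14 levels were 0 to 39.4 CPM (median 12.7) and 61.2, 110, 153 and 124 CPM. Hyperoxic mice were higher without overlap at both ages (log2 difference 2.49 ± 0.43 and 2.40 ± 0.56, adjusted p = 0.00012 and 0.0015). Il6 at P14 had 1 UMI in the 6 normoxic mice and 66 UMIs in the 4 hyperoxic ones (141, 18.4, 134 and 207 CPM), a ratio of 83.0 with a 95% counting interval of 14.4 to 3328 (adjusted p = 6.1e-05). Ptgs2 (COX-2), the inducible prostaglandin synthase, had the largest increase over all ages among genes whose log2 CPM averaged 6 or above, at 2.41 ± 0.36 (adjusted p = 4.4e-06), and rose at P7 from 0 to 69.3 CPM to 167 to 440 CPM. Summed immune markers were at most 0.0331% of UMIs in these mice, which is 331 CPM and above the Il6 levels given. Whether immune cells or their free RNA gave part of these transcripts was not tested. Apoe was the member that fell, by 1.79 on the log2 scale at P14.

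Of 6 genes on the gCap list, 4 fell at P7 and at P14 (3.8% and 12.5% of all genes fell), namely Gpihbp1, Kit, Itga1 and Aplnr. Plvap and Itga6 did not pass. Aplnr and Plvap were not particular to gCap cells, being in 33.0 and 55.7% of thinned venous and 21.3 and 40.8% of gCap cells. Of the 3 aCap markers tested by age, 1 (Apln) rose at P7 and at P14 (5.88% and 13.8% of all genes), and of the 2 tested over all ages Kitl rose by 0.56 on the log2 scale (18.7%). Gpihbp1 (chr15:75596628-75599481) was at 738, 529, 432, 540 and 456 CPM in normoxic P7 mice and at 34.1, 129, 108, 202 and 162 CPM in hyperoxic ones. At P14 it ran from 418 to 1135 CPM (median 854) and was at 42.9, 18.4, 63.6 and 124 CPM. No values overlapped, with log2 differences of -2.11 ± 0.32 at P7 and -3.81 ± 0.41 at P14 (adjusted p = 2.1e-05 and 1.1e-08), whereas at P3 the difference was 0.06 ± 0.42 and the groups overlapped. The share of thinned venous cells with a Gpihbp1 UMI went from 59.3 to 6.90% at P14, and that of Slc6a2 from 68.9 to 43.1%. Log2 differences of Kit, the stem cell factor receptor of gCap cells, were -2.27 ± 0.41 at P7 and -3.05 ± 0.55 at P14, those of Itga1 were -2.17 and -3.12, and Cd36, a fatty acid transporter, fell by 3.85 ± 0.42 at P14 (adjusted p = 1.2e-08). The 6-gene gCap list, Aplnr and Plvap included, summed to 0.230 to 0.294% of UMIs in normoxia and 0.152 to 0.217% in hyperoxia at P7. At P14 the sums were 0.214 to 0.349% and 0.124 to 0.167%. Of the 7 arterial markers tested by age, 5 fell at P14 (Gja4, Mgp, Efnb2, Sox17 and Ltbp4) and Fbln5 rose (12.5% and 13.8% of all genes), with a median log2 difference of -1.35, and at P7 Gja4 and Sox17 fell (3.8%). Summed over 14 arterial markers, levels at P14 were 0.354 to 0.471% of UMIs in normoxia and 0.211 to 0.321% in hyperoxia, without overlap, whereas at P7 they overlapped. Over 6 aCap markers levels were 0.0306 to 0.0641% and 0.0475 to 0.0816% at P7, and 0.0261 to 0.0546% and 0.0404 to 0.0947% at P14. The part of free RNA, of capillary or arterial cells in the cluster, or of droplets holding 2 cells of a mouse, was not tested. Sftpc, an epithelial transcript, also fell at P14, by 0.71 ± 0.23 on the log2 scale (0.022).

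Genes of energy metabolism rose together. Of 29 listed oxidative phosphorylation genes, 25 rose and 1 (Uqcrh) fell over all ages (18.7% and 17.4% of all genes), with a median log2 difference of 0.48, and by age 0 passed at P3, 12 rose at P7 (5.88% of all genes) and 20 at P14 (13.8%). Uqcrq, a complex III subunit, averaged 198 and 340 CPM at P7 and 193 and 384 CPM at P14 in normoxia and hyperoxia. Of 7 glycolysis genes tested over all ages 6 rose (18.7% of all genes), with a median of 0.72, among them Gapdh, Pkm and Ldha. Antioxidant genes moved less. Prdx1, a peroxiredoxin, rose by 0.72, Gpx1 by 0.50 and ferritin light chain Ftl1 by 0.45 on the log2 scale over all ages, 3 of 11 tested (18.7% of all genes), and at P14 7 of 16 rose (13.8%) and Gstm1 fell, with Txnrd1 (1.41) and Ephx1 (1.27) the highest of these. Nqo1, Hmox1, Srxn1 and Slc7a11 had too few UMIs to be tested. Mitochondrial transcripts of venous cells went from 4.87% ± 0.441 to 5.79% ± 0.412 of UMIs at P7 (SD, n = 5 each, adjusted exact permutation p = 0.0476, or 0.05 with mice permuted within pools, which did not pass). Nor did it pass at P3 or P14. At P14 normoxic replicate 4 was at 16.7%, the other normoxic mice at 5.24 to 6.89% and the hyperoxic mice at 6.90 to 9.25%. The P14 difference without that mouse was not tested.

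Ccnd1 (cyclin D1) and apelin were low in normoxic P14 mice and rose under hyperoxia. Ccnd1 was at 48.8, 24.9, 45.4, 52.3, 0 and 5.63 CPM in the normoxic P14 mice and at 496, 745, 591 and 352 CPM in the hyperoxic ones. It did not overlap, and the log2 difference was 4.26 ± 0.54 (adjusted p = 3.5e-07) against 1.79 ± 0.36 at P7 (0.00092). Of 26 listed cell cycle genes 14 were tested by age, and at P14 Tyms rose (13.8% of all genes) and 13 did not pass, 12 of them with a higher value in hyperoxia (list median 1.63, against 0.02 for all genes). Apln, a peptide of sprouting and aCap endothelium, was at 0 to 22.5 CPM (median 10.7) and 135, 487, 248 and 311 CPM at P14, without overlap (4.50 ± 0.48, adjusted p = 1.1e-08), while its receptor Aplnr fell by 0.997 on the log2 scale over all ages.

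Signalling, matrix and haemostasis genes went both ways. Of 18 genes of VEGF, angiopoietin and Notch signalling tested over all ages, 1 rose (S1pr1) and 7 fell (18.7% and 17.4% of all genes), including Efnb2 by 1.09, Sox17 by 0.95, the angiopoietin receptor Tek by 0.75 and the Notch target Hes1 by 0.61 on the log2 scale. Efnb2 and Sox17 are also on the arterial marker list, whose summed level was lower in hyperoxic P14 mice. Of 17 TGF-beta and BMP genes, 5 rose and 2 fell (18.7% and 17.4% of all genes). Ctgf, a matricellular protein induced by TGF-beta and by stretch, rose most at P7, from 3.14, 18.7, 12.2, 58.0 and 12.0 CPM to 364, 138, 163, 416 and 108 CPM, without overlap (3.64 ± 0.51, adjusted p = 8.1e-06), and Cyr61 rose there by 2.25. Among 19 matrix genes 5 rose (Col18a1 1.15, Hspg2 0.88, Col4a2 0.81, Sparc 0.70 and Col4a1 0.61 on the log2 scale) and Ltbp4 and Fbln2 fell, against the same shares of all genes, so neither list is read as having moved as a group. The call of Sparc was lost with mice of at least 15 cells (0.32, adjusted p = 0.19). Of 11 haemostasis genes 6 rose and 2 fell (18.7% and 17.4%), led by Serpine2 (1.05), which inhibits thrombin, and by Anxa2 (1.003) and S100a10 (0.79), which together bind plasminogen at the cell surface.

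**Figure D4:**
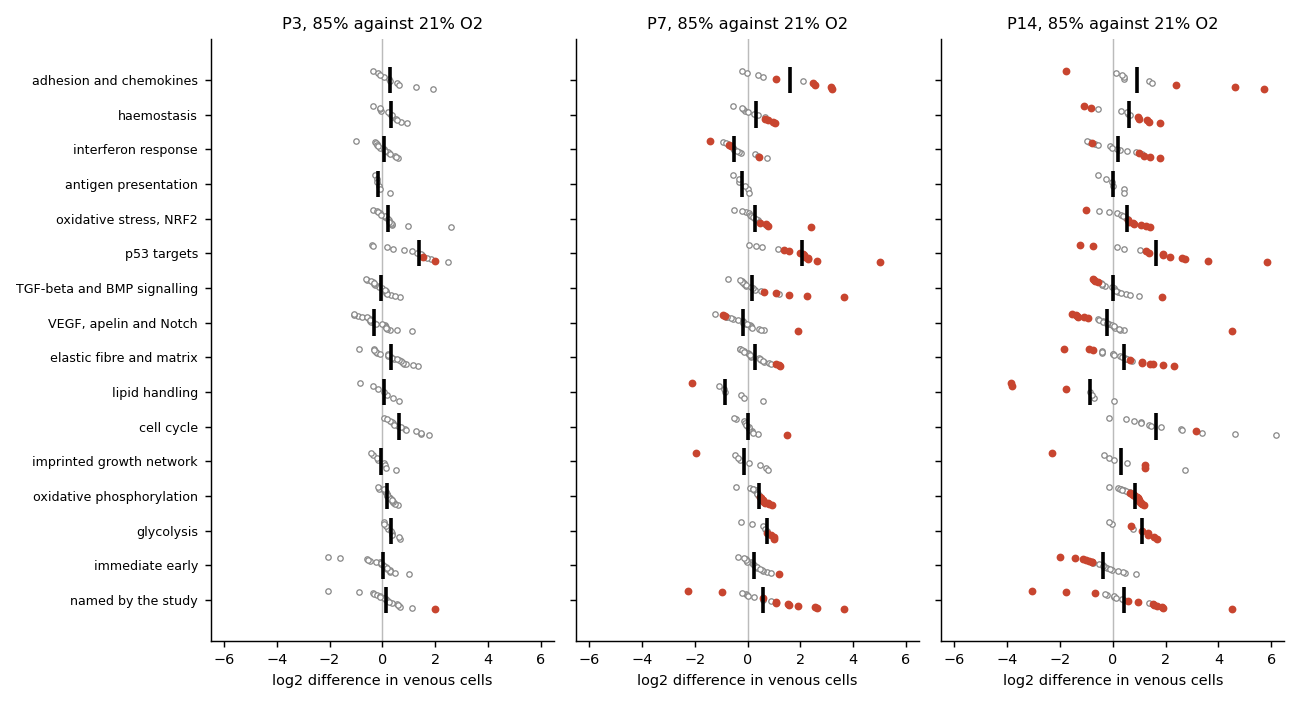
Log2 difference of 85% against 21% O2 in venous cells for every tested gene of 16 lists at P3, P7 and P14. Filled red points passed the test, open points did not, and black bars are list medians. At P3 2 p53 targets passed, at P7 the p53 median was 2.06, and at P14 20 of 29 oxidative phosphorylation genes passed.

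Over all ages 18.7% of all tested genes rose and 17.4% fell, and at P14 12.5% fell, against which the counts of the remaining lists are set. The interferon list had no single direction, with 3 risen and 4 fallen of 10 tested over all ages (median -0.18), among which Ly6a rose by 1.02 and Gbp7 fell by 0.95. None of the 5 antigen presentation genes tested passed (median -0.02, edgeR). Of 5 lipid handling genes only Gpihbp1 and Cd36 passed, both lower. Of 6 genes of the imprinted growth network Peg3 and Igf2r rose and Plagl1 fell, of which Igf2r lost its call when any 1 of 17 mice was left out and Plagl1 when any 1 of 9 was. Of 19 immediate early genes, which tissue dissociation can also induce, 2 rose and 2 fell over all ages and 7 fell at P14, Egr1, Ier2, Klf2 and Jun among them. Of 16 tested genes that the study names for endothelial cells 8 rose and 1 fell, and that list was chosen on these samples and is no independent evidence. Outside the lists, Tinagl1, a matrix protein, rose by 2.18 ± 0.20 and Fmo1, a monooxygenase, fell by 1.78 ± 0.21 on the log2 scale over all ages, both without overlap at any age, and Scn7a, a sodium channel, fell by 2.32 ± 0.32. Of 70 named genes called over all ages, 39 changed in the same direction in all 6 pairs of age and pool, and the lowest number was 4. As said for Slc6a2, the P3 pair of the shared pool and the pair of 1 P14 pool had a single mouse of at least 10 venous cells at an oxygen level. These genes had been called on the same mice, so the counts are a description and no independent evidence. The same was not counted over all genes.

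Dependence of the hyperoxia effect on age was tested as a difference of effects between P14 and P3. Of 3707 genes 43 passed (1.16%), 25 with a higher (0.674%) and 18 with a lower effect (0.486%) at P14. Gpihbp1 differed by -3.87 ± 0.59 on the log2 scale (adjusted p = 0.00041), Itga1 by -4.25 ± 0.78 (0.0024), Cd36 by -3.00 ± 0.59 (0.0048), and Klf9, a glucocorticoid-responsive transcription factor, by -3.14 ± 0.51 (0.00058). In the other direction, Hapln1, which links hyaluronan to proteoglycans, differed by 4.44 ± 0.75 (0.00079), Nme1 by 2.51 ± 0.49 (0.0048) and Anxa2 by 1.51. None of the 14 p53 targets tested did, so their effect at P14 was not shown to differ from that at P3, where for Cdkn1a the difference was -0.10 ± 0.53 and for Bax 1.11 ± 0.33 (0.079). Selp differed by 4.81 ± 1.21 (0.036), but by 2.79 without normoxic P3 replicate 3 (0.39), and its call was lost when any 1 of 8 mice was left out.

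Normal maturation was read from normoxic mice. From P3 to P7, 5 of 3707 genes fell and none rose by edgeR (0.135%), with 357 at an unadjusted p below 0.05 and 3 called by DESeq2. The absence of increases did not hold in other fits by edgeR, with 3 higher and 3 lower with mice of at least 5 cells, 4 and 4 with the deeper oxygen level thinned, 14 and 18 without a filter on low counts, and 1 and 3 with pool as block. Hhip, which binds and restrains hedgehog ligands, was at 76.6, 198, 384 and 236 CPM at P3 and 18.8, 31.1, 8.16, 29.0 and 72.0 CPM at P7. The ages did not overlap, and the log2 difference was -3.20 ± 0.48 (adjusted p = 0.00031). The imprinted factor Plagl1 fell by 1.34 ± 0.28 (0.033). From P7 to P14 224 genes rose (6.04%) and 191 fell (5.15%, and 11.2% in either direction), a comparison in which no pool held both ages, so age and pool cannot be told apart. Venous markers rose in it, 6 of 11 tested and none down (6.04% of all genes rose), with Slc6a2 up by 2.12 ± 0.31, Amigo2 by 1.69 ± 0.29, Prss23 by 1.49, Vwf by 1.10 ± 0.20 and Ephb4 by 0.64. The sixth, Vcam1, rose by 2.33 (0.029), but by 1.01 without normoxic P14 replicate 6 (0.46), and it did not pass by DESeq2 (0.10). The call of Ephb4 was lost when any 1 of 17 mice was left out, and with cells thinned to 2000 UMIs the difference of Amigo2 was 0.93 and did not pass (0.11). Summed epithelial markers were 0.118 to 0.162% of UMIs in normoxic P7 mice and 0.127 to 0.288% in normoxic P14 mice. Immune markers were at 0.00839 to 0.0217% and 0.0187 to 0.0327%, and erythroid markers at 0.00245 to 0.0342% and 0 to 0.00341%. How much free RNA shifted with age was not tested.

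Other genes that rose from P7 to P14 included Fmo2 (3.64 ± 0.51), Myof (2.51), Cd36 (1.60), Bmpr2 (1.27) and thrombomodulin (Thbd, 1.10). Those that fell included the imprinted Meg3 by 2.75, Mest by 2.33 and Peg3 by 1.38, and the proliferation genes Cks2 by 3.90, Ccnd1 by 2.68, Tyms by 2.10 and Stmn1 by 1.12 on the log2 scale. For several of these genes age and hyperoxia had opposite directions. Slc6a2, Vwf, Amigo2, Cd36 and Fmo2 rose from P7 to P14 in normoxia and were lower in hyperoxic than in normoxic P14 mice, and Ccnd1, Apln, Peg3, Mest and Tyms did the reverse. The fall of Apln from P7 to P14 (-1.82, adjusted p = 0.043) was lost with DESeq2 (0.061), with mice of at least 5 cells (0.066) and when any 1 of 7 mice was left out, and was -1.21 without normoxic P7 replicate 1 (0.26). At P14 the hyperoxia effect of Mest was 0.52 without hyperoxic replicate 3 (0.42), and that of Peg3 was 0.13 with cells thinned to 2000 UMIs (0.89). The fall of Meg3 was lost when any 1 of 8 mice was left out and that of Cks2 when any 1 of 3 was. The age and hyperoxia comparisons both use the normoxic P14 mice, so these directions are not independent of each other.

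Venous cells were last set against other endothelial cells of the same mice, with the mouse as a block, by testing whether the effect of hyperoxia differed between types. It differed from that in gCap cells for 319 of 5582 genes (5.71%, with 2.28% higher and 3.44% lower in venous cells), and from aCap cells for 537 of 5338 (10.1%, with 5.51% higher and 4.55% lower). For arterial cells, which 25 mice allowed, it was 227 of 3137 (7.24%, with 3.35% higher and 3.89% lower). In the same order of types these counts were 145, 410 and 172 without the mouse as block, 160, 301 and 48 with mice of at least 15 cells, 90, 112 and 49 with cells thinned to 2000 UMIs, and 60 (1.2% of genes tested), 119 (2.95%) and 46 (1.76%) in cells without UMIs of other lineages. None of 15 p53 targets tested differed between venous and gCap cells, by edgeR, whereas 5 of 9 had a larger increase in venous than in arterial cells (3.35% of all genes), by 1.94 for Bax, 1.73 for Cdkn1a, 1.49 for Mdm2, 1.47 for Ei24 and 1.29 for Phlda3 on the log2 scale. Rps27l rose more in venous than in gCap cells by 0.42 ± 0.12 (adjusted p = 0.019), and more than in arterial cells by 1.85 ± 0.18 (2.5e-09). Against aCap cells 3 of the p53 targets were higher (Trp53inp1, Phlda3 and Bax) and Plk2 lower. Of 29 oxidative phosphorylation genes 9 had a larger effect in venous than in arterial cells (3.35% of all genes), and 20 did not pass.

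Single genes showed where veins differed from capillary cells. Tspan8, a tetraspanin, went from 281 to 76.7 CPM in venous cells (means over mice) and from 129 to 124 CPM in gCap cells (difference of log2 effects -2.03 ± 0.26, adjusted p = 3.6e-07), and was 251 and 281 CPM in aCap cells. Bambi, a decoy BMP receptor, fell from 128 to 61.7 CPM in venous and rose from 48.2 to 86.1 CPM in gCap cells (-1.86 ± 0.27). Serpinb6b went from 128 to 244 CPM in venous and from 66.3 to 45.1 CPM in gCap cells (1.42 ± 0.24), opposite ways again. Fbln2, an elastic fibre protein that was high in veins, kept 1140 of 1423 CPM in venous cells, against 42.6 of 122 CPM in gCap and 6.96 of 56.4 CPM in aCap cells (1.27 ± 0.22 and 2.72 ± 0.35). Against arterial cells its difference was -0.38 ± 0.21 and did not pass (adjusted p = 0.30, edgeR). In cells without UMIs of other lineages the difference of Fbln2 from gCap cells was 0.68 and did not pass (0.19). Tgfb2 rose from 124 to 179 CPM in veins but from 18.6 to 152 CPM in aCap cells (-2.19 ± 0.39).

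Some inflammatory genes differed by vessel type and others did not pass. By edgeR, Selp did not pass against gCap (1.37, adjusted p = 0.46) or aCap cells (3.11, 0.25). The increase of Vcam1 was larger in venous than in aCap cells (1.75, 0.043). It did not pass against gCap (1.63, 0.070) or arterial cells (-0.41, 0.75). Ptgs2 did not pass against gCap (0.68), aCap (0.64) or arterial cells (0.26). The increase of Cxcl1 was larger in venous than in gCap (1.56), aCap (1.24) and arterial cells (2.15 ± 0.47, adjusted p = 0.0024), in the last of which it went from 81.9 to 61.9 CPM. With mice of at least 15 cells the difference of Cxcl1 from arterial cells was 1.07 and did not pass (0.32). Icam1 rose less in venous than in gCap cells (-0.90) and aCap cells (-0.92). Ccnd1 rose from 93.3 to 519 CPM in venous and from 48.3 to 70.9 CPM in arterial cells (2.18 ± 0.42). Gpihbp1 and Cd36 fell more in venous than in gCap cells, by 1.69 and 1.25 on the log2 scale. Gja4, the gap junction gene of arteries, was 935 and 899 CPM in arterial cells and went from 88.8 to 10.8 CPM in venous cells (-2.50 ± 0.37).

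**Figure D5:**
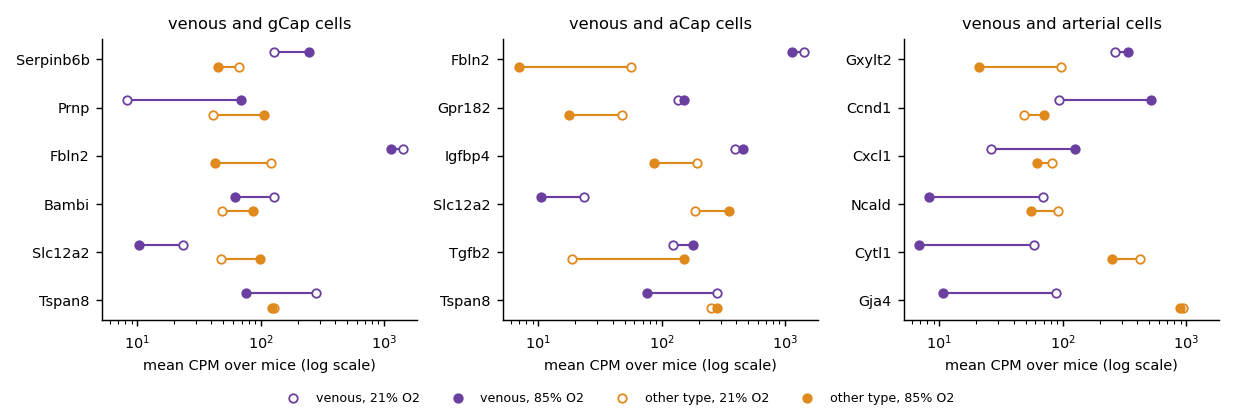
Mean CPM over mice in 21% O2 (open) and 85% O2 (filled) for venous cells (purple) and the other endothelial type (orange), on a log axis, for the 3 genes with the largest difference of effects in each direction against gCap, aCap and arterial cells. Tspan8 fell from 281 to 76.7 CPM in venous cells and was 129 and 124 CPM in gCap cells.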

How the data were processed

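Single-cell RNA-seq of 36 mouse lungs was used as deposited. Per the study's methods, the authors processed reads with Cell Ranger 3.0.2 on mm10, assigned cells to mice with deMULTIplex, removed contaminant clusters and cells with few genes or a high mitochondrial share, and clustered cells with Seurat. They deposited whole-number UMI counts per gene and cell (22100 genes, 61839 cells), counts of sample barcodes, and for each cell the percent of mitochondrial UMIs and the labels used here. The labels treat the mice as separate animals. Of 571 venous cells, 564 had their assigned sample barcode as the most frequent one, and no venous cell barcode occurred as a venous cell in more than 1 library. No doublet caller was run, since the authors removed cells with several sample barcodes. Of the venous cells, 440 had no UMI of Ptprc, Epcam, Col1a1 or Msln.

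UMI counts of venous cells were summed per mouse (pool and sample barcode), for mice with at least 10. Not used were normoxic P3 replicates 1 and 2, hyperoxic P3 replicate 3, replicate 5 of both P7 groups, and hyperoxic P14 replicates 1 and 2. Sums were fitted in R 4.3.3 with edgeR 4.0.16 (quasi-likelihood test, TMM scaling, filterByExpr, Benjamini-Hochberg adjustment over all genes tested), with oxygen and age, or with all 6 groups in 1 model, or with the mouse as block for 2 cell types. All errors of log2 differences are approximate SE, taken as the size of the log2 difference over the square root of edgeR's F statistic. Shares, depth and mitochondrial percent were compared by exact two-sided permutation tests over mice (scipy 1.17.1). DESeq2 1.42.0 was an alternative. Intervals are exact and cover counting error only. Gene positions (GRCm38) come from GENCODE vM21. The main fit has no pool term, and a fit with pool as replicate block, each pool holding both oxygen levels of an age, is given as an alternative. On simulated counts for the comparison over all ages (2399 genes), 100% of genes changed by a log2 of 1 or 2 were called, at P14 (3543 genes) 63% and 99%, for the difference between P14 and P3 24% and 87%, and for venous against gCap cells (5626 genes) 92% and 100%. Of the calls made there, 4.9%, 4.7%, 7.5% and 4.5% were genes not changed. These counts were drawn with the same spread for every gene and no age or pool effect, and the 10% detection criterion was not applied. Changed genes were taken from those tested over all ages, so these rates need not hold for the real fits.

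Genes were named by fixed rules, namely the venous markers and genes the study names, the largest changes in each comparison among genes whose log2 CPM averaged 6 or above, and up to 4 members per list. Members and lists were chosen with earlier results of these data known. Values given outside these rules, such as those of Rps27l at P7 and P14, were chosen after they were seen.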

Additional observations from a re-analysis of the deposited data

Results flagged for a closer look

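Mice that stood apart from their group by Dixon's gap test at the 95% level numbered 18 over 180 groups of values tested, and chance flags about 1 in 20 groups. Hyperoxic P7 replicate 5 had 0% venous cells, both of all cells and of its 14 endothelial cells. Normoxic P14 replicate 4 stood apart in 3 measures. Its venous cells had a median of 1071 UMIs and 16.7% mitochondrial UMIs, and its Bax level of 261 CPM was the highest of its group. That level rests on few UMIs, since this mouse had 19127 in all. Normoxic P3 replicate 3 was high in Vwf (1865 CPM) and Selp (485 CPM), and Selp was also high in hyperoxic P3 replicate 2 (381 CPM) and hyperoxic P7 replicate 3 (499.8 CPM). Normoxic P14 replicate 6 was high in Vcam1 (276 CPM) and Ptgs2 (411 CPM), and normoxic P14 replicate 3 in Amigo2 (375 CPM). Ccnd1 was high in replicate 1 of both P7 groups, at 430.3 CPM in normoxia and 1458 CPM in hyperoxia, which come from the same pool. Ctgf reached 58.0 CPM in normoxic P7 replicate 4. Il6, which had few UMIs, was flagged in normoxic P3 replicate 5 (45.2 CPM), hyperoxic P7 replicate 4 (104 CPM) and normoxic P14 replicate 5 (14.1 CPM).

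A test of the difference itself flagged 24 named effects. Between P14 and P3 the effect of hyperoxia differed on the log2 scale by 4.81 for Selp, 4.44 for Hapln1, 2.51 for Nme1, -4.25 for Itga1, -3.87 for Gpihbp1 and -3.14 for Klf9. Between venous and gCap cells it differed by -2.03 for Tspan8, -1.96 for Slc12a2, -1.86 for Bambi, 1.42 for Serpinb6b, 1.34 for Prnp and 1.27 for Fbln2. Against aCap cells the differences were -2.20 for Tspan8, -2.19 for Tgfb2, -2.05 for Slc12a2, 2.72 for Fbln2, 2.11 for Gpr182 and 1.99 for Igfbp4. Against arterial cells they were -2.50 for Gja4, -2.26 for Cytl1, -2.23 for Ncald, 2.27 for Gxylt2, 2.18 for Ccnd1 and 2.15 for Cxcl1.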

How the results depend on the processing

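With cells thinned to 2000 UMIs, fewer genes could be tested. Called were 111 of 473 tested over all ages (23.5%, against 896 of 2479 or 36.1% in the report). Of 820 tested, 47 were called at P7 (5.73% against 9.68%), 213 at P14 (26% against 26.3%) and 1 from P3 to P7. From P7 to P14 it was 119 (14.5% against 11.2%), and for the difference between P14 and P3 21 (2.56% against 1.16%). The share called was therefore lower over all ages and at P7, and nearly the same at P14. For venous against gCap, aCap and arterial cells 90 of 2609, 112 of 1757 and 49 of 758 were called (3.45, 6.37 and 6.46% against 5.71, 10.1 and 7.24%). With mice of at least 15 cells they were 542 over all ages and 160, 301 and 48 for the 3 types, and without cells holding UMIs of other lineages 417, 60, 119 and 46. Too few mice were left for either by age. Thinning the deeper oxygen level to the median of the other, an alternative chosen after seeing the data, gave 495 over all ages, 533 at P14 and 8 from P3 to P7. Cells without a UMI of Gpihbp1 or Kit, also chosen after seeing the data, gave 88 over all ages, 3 at P3, 27 at P7, 56 at P14, 0 from P3 to P7 (edgeR), 5 from P7 to P14 and 6 for the difference between P14 and P3. Those are fewer cells per mouse, from mice with at least 5 of them, and the choice removed unequal shares of the oxygen levels. In them Selp changed sign for the difference between P14 and P3 (-3.47), as did Iigp1 (1.16) and Ly6e (0.22) at P7 and Gpx1 over all ages (-0.028), none called. P3 and P7 mice alone gave 330 and mice outside the pool shared by P3 and P7 578 over all ages, both chosen after seeing the data. Without a filter on low counts, 28 genes passed at P3, 32 from P3 to P7 and 84 for the difference between P14 and P3, which was 81 with mice of at least 5 cells. DESeq2 called 8 at P3 and 3 from P3 to P7. With pool as replicate block 8 passed at P3, against 5, and 923 over all ages, 452 at P7 and 926 at P14, and with oxygen labels permuted within pools the P3 difference in UMIs per cell of 2937.8 passed, whereas with mice of at least 5 cells it was 1737.67 and did not pass (exact permutation p = 0.21 within pools). Without the mouse as replicate block 145, 410 and 172 genes differed from gCap, aCap and arterial cells. No pool held P7 and P14 mice, so that comparison has no block.

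With 1 mouse left out in turn, counts ran from 736 to 938 over all ages, 2 to 9 at P3, 247 to 396 at P7, 743 to 1059 at P14, 2 to 11 from P3 to P7, 302 to 448 from P7 to P14, 26 to 58 for the difference between P14 and P3, and 257 to 367, 451 to 593 and 163 to 247 against gCap, aCap and arterial cells. The P3 count was 2 or 3 without normoxic replicate 3 or 4 or hyperoxic replicate 4, and 9 without normoxic replicate 5 or hyperoxic replicate 1. The difference between P14 and P3 gave 26 to 28 genes without normoxic P3 replicate 6, hyperoxic P3 replicate 1 or hyperoxic P14 replicate 5. From P3 to P7 the count was 2 or 3 without normoxic P3 replicate 4 or 6 or normoxic P7 replicate 1 or 3, and 9 or 11 without normoxic P14 replicate 4 or hyperoxic P7 replicate 1, 4 or 6. The difference in venous share of all cells ran from -0.141 to -0.00839 percentage points at P3, -0.434 to -0.180 at P7 and -0.594 to -0.389 at P14, where exact permutation p ran from 0.0152 to 0.0649. Of endothelial cells it ran from -0.0641 to 0.780, -1.08 to 0.634 and -0.622 to 0.472. The difference in UMIs per cell ran from 1912.5 to 3855.3 at P3, 4791.9 to 6800.9 at P7 and 5494 to 7851 at P14.

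For named genes and alternatives other than leaving out a mouse, 2929 values kept their direction and side of the threshold, 253 lost the call, 46 gained it and 4 reversed. With a mouse left out, 11160 were kept, 351 lost the call and 41 gained it. The cause of these shifts was not tested, beside the fewer cells, mice or UMIs by construction. Depth limits what can be said of single mice, which had 10 or more venous cells each. It also limits genes near 0 CPM, where 1 UMI moves a mouse by several CPM or more. In normoxic P14 replicate 4, with 19127 UMIs, 1 UMI is 52.3 CPM.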
